A study of Mus musculus with 9 samples.

Results

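The phagocyte NADPH oxidase was followed in AML246 cells through 7 genes chosen by name: Cybb, Cyba, Ncf1, Ncf4, Rac1, Rac2 and Rap1a. All 7 were found by Entrez identifier among the 27179 entries of the deposited count files, and all 7 were among the 12004 genes that passed the filter on low counts. AML246 cells come from a leukaemia of C57BL/6 mice (acute myeloid leukaemia), are described in the series' title as p53-/- and carry shPU.1, a short hairpin RNA. Its target is PU.1, a transcription factor of myeloid cells whose gene is Spi1. Clones 1, 2 and 4, each grown from a single sorted cell in medium with IL3, were measured by RNA-seq in 3 states, which gave 9 libraries. Wash cells had 14 days of doxycycline (Dox) followed by 14 days without it and were sorted as GFPhigh; Dox cells had 14 days of Dox and were sorted as GFPoff; untreated cells had no Dox and were sorted as GFPhigh. All 3 groups share the p53-/- and shPU.1 description and the IL3 culture. All clones derive from 1 line, so the p-values speak only of variation among its clones. In these groups the drug and the GFP gate change together, and the labels do not state how Dox acts on the hairpin, so Dox itself, the gate and the hairpin cannot be told apart.

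The phagocyte oxidase moves electrons from NADPH across a membrane to oxygen and so makes superoxide, the oxidant that neutrophils and macrophages use against microbes. The catalytic chain gp91phox, encoded by Cybb, is held in the membrane by p22phox, encoded by Cyba, and this pair is switched on when cytosolic proteins, p47phox and p40phox among them, and a Rac GTPase join it. Loss of Cybb, Cyba, Ncf1 or Ncf4 function in people causes or predisposes to forms of chronic granulomatous disease, and PU.1 is a known activator of oxidase genes in myeloid cells.

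Library totals ran from 7408118 to 9803258 counts. Levels are CPM (counts scaled to a fixed library total) after TMM scaling, which corrects for libraries of different make-up. In untreated clone 1 a single entry, 100861531, took 22% of counts, against 0.153% to 1.64% in the other libraries. Spi1 averaged 38.8 ± 14.1 CPM in Wash, 181 ± 22.4 CPM in Dox and 39.4 ± 13.6 CPM in untreated cells (SD, n = 3 each). The summed level of 4 blood cell markers (Ptprc, Cd53, Laptm5 and Coro1a) was 1000 to 1330 CPM in Wash, 2560 to 3230 CPM in Dox and 1260 to 1420 CPM in untreated libraries. Of these Ptprc, which encodes the leukocyte antigen CD45, was near 0 outside Dox, with 0.622 ± 0.124 CPM in Wash, 38.4 ± 9.14 CPM in Dox and 1.55 ± 0.52 CPM in untreated cells (SD, n = 3 each).

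Of the 7 genes, 3 rose in Dox against untreated cells and 0 fell at an adjusted p under 0.05 by edgeR's quasi-likelihood test: Ncf1, Cyba and Ncf4. Over all genes tested, 6.57% were called higher and 4.35% lower, 10.9% in all. With the clone as a block the same number of members passed, beside 24.8% of all genes. Ncf1 was 11.6-fold higher, Cyba 2.61-fold and Ncf4 2.28-fold, and each of them was higher in Dox in all 3 clones. The gene of the catalytic chain, Cybb, did not follow them: it had at most 10 reads in any Dox library. Rac1, Rac2 and Rap1a did not pass the test. All 7 fell into groups without overlap, 5 with every Dox library above every untreated one (20.4% of all genes did so) and 2, Cybb and Rap1a, with every Dox library below (18.5% of all genes).

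**Figure D1:**
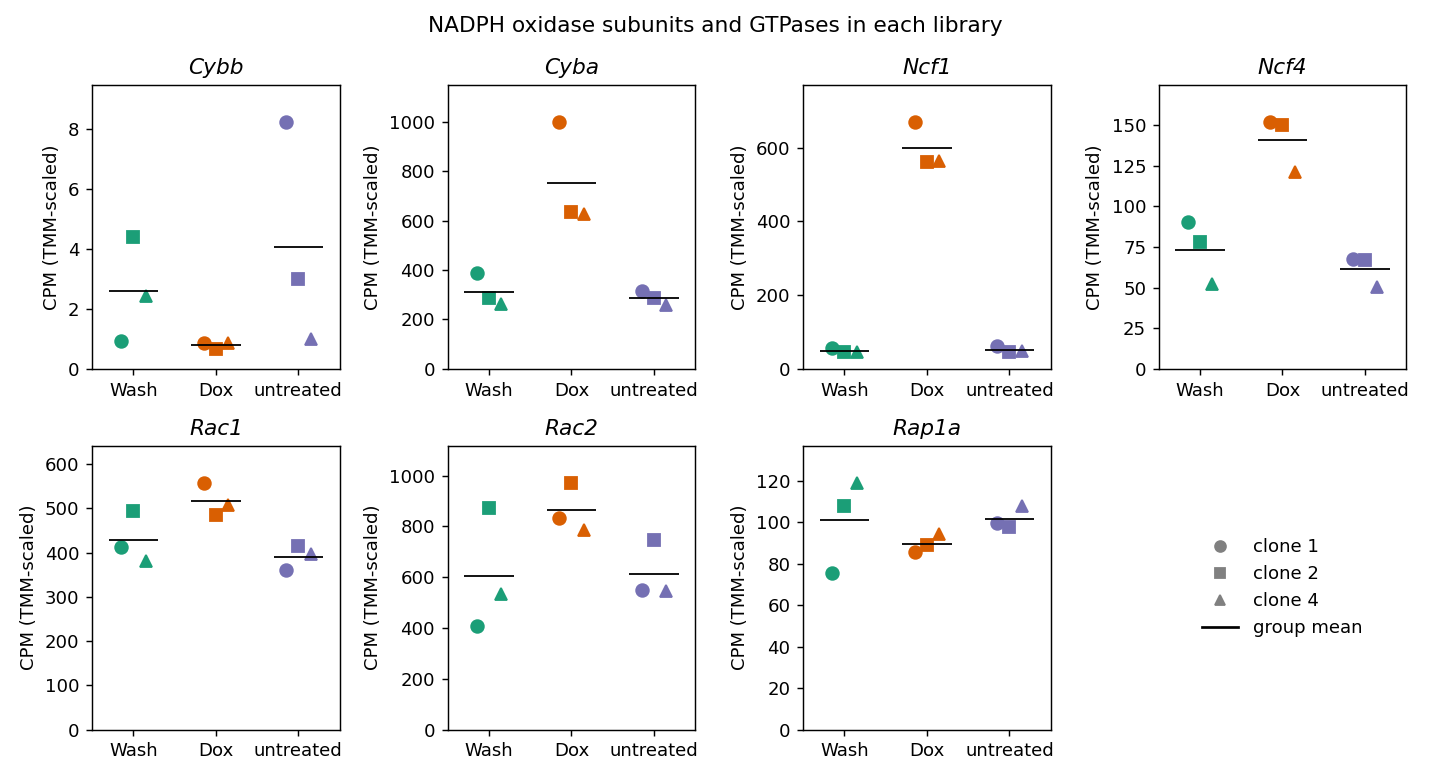
TMM-scaled CPM of the 7 genes (vertical axes, each from 0) in the Wash, Dox and untreated libraries; symbols give the clone and lines the group mean. Ncf1 stood at 561 to 670 CPM in Dox and 45.5 to 60.9 CPM in untreated cells, while Cybb stayed at or below 0.881 CPM in every Dox library.

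The upstream sequences of 3 of the 7 genes, Ncf1, Cyba and Cybb, were in the RefSeq table of GRCm38.p6, and these are shown. Those of the other members, Ncf4 among them, were not in it. Each line gives the 250 bases before the start of transcription that the table uses, on the minus strand, 5′ to 3′, with the 4-base core of ETS family sites, GGAA, in capitals on either strand (TTCC where it lies on the other strand).
Ncf1 chr5:134229626-134229875: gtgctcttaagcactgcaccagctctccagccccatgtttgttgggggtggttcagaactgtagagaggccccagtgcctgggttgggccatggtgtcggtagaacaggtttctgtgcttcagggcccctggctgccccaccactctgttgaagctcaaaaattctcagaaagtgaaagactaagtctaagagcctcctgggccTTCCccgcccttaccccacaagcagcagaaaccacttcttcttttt
Cyba chr8:122432941-122433190: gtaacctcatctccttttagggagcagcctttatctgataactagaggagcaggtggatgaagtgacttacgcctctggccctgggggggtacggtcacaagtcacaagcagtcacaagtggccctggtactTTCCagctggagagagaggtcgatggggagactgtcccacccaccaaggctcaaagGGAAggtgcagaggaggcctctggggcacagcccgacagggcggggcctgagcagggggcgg
Cybb chrX:9469325-9469574: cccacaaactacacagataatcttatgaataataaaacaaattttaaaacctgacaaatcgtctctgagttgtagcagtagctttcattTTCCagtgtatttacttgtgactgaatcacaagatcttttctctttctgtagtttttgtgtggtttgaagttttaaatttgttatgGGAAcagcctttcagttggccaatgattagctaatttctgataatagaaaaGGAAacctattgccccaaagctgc
A window that also took in the first 50 transcribed bases was searched on both strands. GGAA occurred 1 time for Ncf1, 2 times for Cyba and 4 times for Cybb, and 96.0% of 32851 such windows held it, with a median of 3. GAGGAA, a longer string that contains GGAA, was taken as 1 form of a PU.1-type core, and no other form was searched for. It was absent from the Ncf1 and Cyba windows and occurred 1 time for Cybb. That match was on the reverse strand at bases 10 to 15 counted from 1 at the start. Of all windows, 28.3% held GAGGAA. Whether PU.1 acts on any of the 3 genes cannot be read from these matches. These are matches of letters and not measured binding. The starts used are not always the outermost ones of the gene: the Cybb window lies inside the annotated span of Cybb, and the Ncf1 window overlaps the end of the Ncf1 span.

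Cyba (Entrez gene 13057, chromosome 8, 122424771 to 122432940 on GRCm38) encodes p22phox, the membrane chain that stabilises its catalytic partner. It stood at 999, 633 and 627 CPM in Dox clones 1, 2 and 4, against 317, 288 and 260 CPM in untreated clones 1, 2 and 4. Every Dox library lay above every untreated one, with the largest value in clone 1, where the ratio was 3.16, against 2.20 in clone 2 and 2.41 in clone 4. The rise had a log2 fold change of 1.39 ± 0.25 (SE, adjusted p = 0.0108). The adjusted p was 0.0889 when clone 2 was left out and 0.212 when clone 4 was left out, so the call did not hold in either case. The log2 fold change was then 1.49 and 1.42. Without clone 4, 0 of 12069 genes passed, so the loss there is not particular to Cyba.

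Cybb (Entrez gene 13058, chromosome X, 9435252 to 9487766) encodes gp91phox, also called NOX2, the chain that carries the electrons. Its counts were 10, 5 and 9 reads in Dox clones 1, 2 and 4, against 45, 24 and 8 in untreated clones 1, 2 and 4. As CPM these were 0.881, 0.661 and 0.871 in Dox, against 8.25, 3.02 and 0.987 in untreated cells. The groups did not overlap, but in clone 4 the 2 libraries were 1 read apart, and the untreated clones spread more than the Dox clones. The log2 fold change was -2.29 ± 0.81 (SE) and missed the threshold (adjusted p = 0.104); DESeq2 on the same counts passed it (log2 fold change -2.33, adjusted p = 0.0335). Without the untreated library of clone 1 the value was -1.29 (adjusted p = 0.381). Cybb ranked 11099 of 12004 tested genes by mean level over the libraries, and no stretch of 50 bases in its longest coding transcript was shared with another annotated transcript.

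Ncf1 (Entrez gene 17969, chromosome 5, 134220053 to 134229628) encodes p47phox, the organiser that is phosphorylated on activation and carries the cytosolic proteins to the membrane. It stood at 670, 561 and 565 CPM in Dox clones 1, 2 and 4, against 60.9, 45.5 and 49.1 CPM in untreated clones. The lowest Dox library was above the highest untreated library by a wide margin, and the ratios within clones were 11, 12.3 and 11.5. Its log2 fold change of 3.53 ± 0.20 (SE, adjusted p = 0.000188) had the smallest p of all 12004 genes and ranked 87 from the largest rise. Without clone 4, where 0 of 12069 genes passed (1608 had an unadjusted p under 0.05), the value was 3.52 (adjusted p = 0.0996). Of the exonic bases of Ncf1 in GENCODE, 408 of 3663 overlap Gtf2ird2 on the opposite strand; Gtf2ird2 had at most 31.0 CPM in any library.

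Ncf4 (Entrez gene 17972, chromosome 15, 78244164 to 78262582) encodes p40phox, which binds the lipid phosphatidylinositol 3-phosphate. It stood at 152, 150 and 121 CPM in Dox clones 1, 2 and 4, against 67.8, 67.3 and 50.2 CPM in untreated clones, without overlap. The ratios within clones lay close together at 2.24, 2.23 and 2.41. The log2 fold change was 1.19 ± 0.23 (SE, adjusted p = 0.0138), and the call did not hold when clone 2 (adjusted p = 0.115), clone 4 (0.169) or the untreated library of clone 1 (0.0544) was left out.

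Rac2 (Entrez gene 19354, chromosome 15, 78559169 to 78572783) is the Rac GTPase of blood cells and the main one of the neutrophil oxidase. It stood at 835, 972 and 786 CPM in Dox clones 1, 2 and 4, against 549, 748 and 545 CPM in untreated clones. Clone 2 was highest in both groups, and the groups did not overlap. The log2 fold change of 0.49 ± 0.29 (SE) did not pass (adjusted p = 0.307), also with the clone as a block (0.51 ± 0.20 SE, adjusted p = 0.0893).

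Rac1 (Entrez gene 19353, chromosome 5, 143505481 to 143528031), the Rac GTPase of most cell types, stood at 558, 486 and 507 CPM in Dox clones 1, 2 and 4, against 361, 414 and 396 CPM in untreated clones. Every Dox library was again above every untreated one, with ratios within clones of 1.55, 1.17 and 1.28. The log2 fold change was 0.41 ± 0.17 (SE, adjusted p = 0.165). In GENCODE, 2309 of 4496 exonic bases of Rac1 overlap Daglb, a lipase gene on the opposite strand. Daglb also rose, with at most 33.1 CPM in any Dox library and at most 10.4 CPM in any untreated one (log2 fold change 1.70, adjusted p = 0.0295). The gene length that the authors deposited for Rac1 is 2269 bases, shorter than these exons, so how many of the shared bases were counted is not known. Without a stated strand setting, any reads counted there cannot be assigned to one of the pair. No stretch of 50 bases was shared between the longest coding transcript of Rac1 and any Rac2 transcript, or the reverse.

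Rap1a (Entrez gene 109905, chromosome 3, 105727260 to 105801394) encodes a Ras-like GTPase that copurifies with the membrane chains. It stood at 85.5, 88.9 and 94.4 CPM in Dox clones 1, 2 and 4, against 99.5, 97.5 and 108 CPM in untreated clones. The groups did not overlap, yet the difference was small (log2 fold change -0.18 ± 0.19 SE, adjusted p = 0.567), and scaling by library size alone turned it to 0.037. Of the 50-base stretches in its longest coding transcript, 9.46% also occur in transcripts of other genes, most of them in the annotated gene Gm9392; how the counting treated such reads is not given in the sources used here. Its close relative Rap1b rose, with 120 ± 11 CPM in Dox and 76.2 ± 8.72 CPM in untreated cells (SD, n = 3 each, log2 fold change 0.66, adjusted p = 0.0315).

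**Figure D2:**
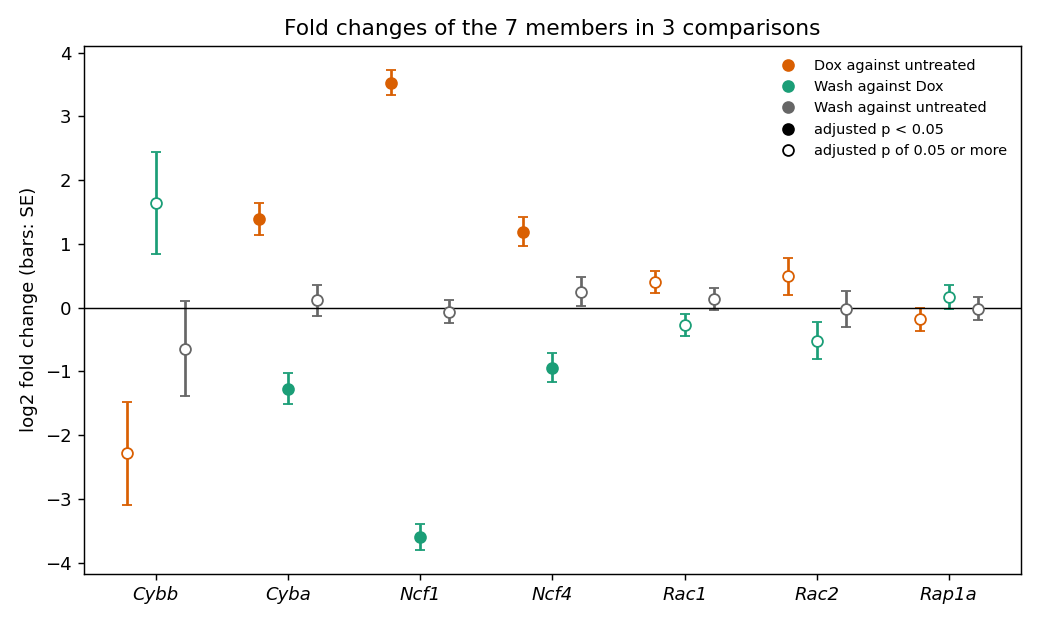
Log2 fold changes with their standard errors (vertical axis) for the 7 genes in the 3 comparisons; filled points passed an adjusted p of 0.05. Ncf1, Cyba and Ncf4 passed upwards in Dox against untreated and downwards in Wash against Dox, and 0 of the 7 passed in Wash against untreated.

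After washout 3 of the 7 genes fell against Dox and 0 rose; of all genes, 6.02% were called lower and 3.64% higher, 9.66% in all (22.9% with the clone as a block, which left the members' count at 3). The 3 were Ncf1, Cyba and Ncf4, which had risen in Dox; the 2 comparisons share the Dox libraries, so the falls are not independent of the rises. Ncf1 stood at 55.9, 46.8 and 45.7 CPM in Wash clones 1, 2 and 4, against the 561 to 670 CPM of the Dox libraries (log2 fold change -3.60 ± 0.20 SE, adjusted p = 0.000161). Cyba stood at 390, 286 and 261 CPM in Wash clones, against 627 to 999 CPM in Dox (log2 fold change -1.27 ± 0.25 SE, adjusted p = 0.0161). Ncf4 stood at 90.2, 78.1 and 52.2 CPM in Wash clones, against 121 to 152 CPM in Dox (log2 fold change -0.94 ± 0.23 SE, adjusted p = 0.0344). For these 3 genes no Wash library reached the lowest Dox library (14.5% of all genes were lower without overlap), and 1 member, Cybb, was higher without overlap (11.8% of all genes were). The Ncf4 call was lost without any one of clones 1, 2 and 4 (adjusted p = 0.0579, 0.194 and 0.258), and the Cyba call without clone 2 (adjusted p = 0.121) or clone 4 (adjusted p = 0.272). The Ncf1 call was lost without clone 4 (adjusted p = 0.0602). In that fit 1 gene was called higher and 3 lower among all 12069 tested.

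The other 4 genes did not pass in Wash against Dox. Cybb had 10, 36 and 20 reads in Wash clones 1, 2 and 4, against 10, 5 and 9 reads in Dox clones 1, 2 and 4. As CPM these were 0.919, 4.41 and 2.44 in Wash, against 0.881, 0.661 and 0.871 in Dox, with a narrow gap in clone 1 and wider ones in clones 2 and 4 (log2 fold change 1.65 ± 0.80 SE, adjusted p = 0.233). Rac2 stood at 410, 871 and 533 CPM in Wash clones 1, 2 and 4, so that Wash clone 2 lay within the Dox range of 786 to 972 CPM and the other 2 below it (log2 fold change -0.52 ± 0.29 SE, adjusted p = 0.296). Rac1 stood at 413, 494 and 382 CPM in Wash, overlapping the Dox range (log2 fold change -0.27, adjusted p = 0.369), and Rap1a at 75.5, 108 and 119 CPM (log2 fold change 0.17, adjusted p = 0.612).

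Wash and untreated cells were compared to ask whether a cycle of Dox left a trace. Of the 7 genes 0 passed in either direction, as did 0 of 12004 genes by edgeR (0% of all genes) and 0 by DESeq2. By edgeR 38 genes had an unadjusted p under 0.05, and 98 with the clone as a block. With no difference at all, a share of about 0.05 of the genes would, which is more than either number. The test was therefore strict here, and 0 calls do not show that no trace was left. The log2 fold change was 0.12 ± 0.25 for Cyba, -0.07 ± 0.18 for Ncf1 and 0.25 ± 0.23 for Ncf4 (SE each, adjusted p = 1), and the signs for Cyba, Ncf1, Rac2, Rap1a and Cybb turned under some alternatives. The groups overlapped for all 7 genes; over all genes, 1.31% were higher and 1.05% lower without overlap. For Cybb the value was -0.64 ± 0.75 (SE), and it turned to 0.77 without clone 1: the Wash library had 10 reads and the untreated one 45 in clone 1, against 36 and 24 in clone 2 and 20 and 8 in clone 4.

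Levels of different genes were compared per kilobase, as CPM divided by the gene length that the authors deposited. In Dox, Cyba was highest with 826 to 1320 CPM per kilobase, followed by Rac2 with 259 to 320. Rac1 with 214 to 246 and Ncf1 with 206 to 246 came next and overlapped. Ncf4 followed with 83.3 to 104, then Rap1a with 66.1 to 72.9, without overlap, and last Cybb with 0.139 to 0.185. In untreated cells Ncf1, with 16.7 to 22.4 CPM per kilobase, stood below Ncf4, with 34.5 to 46.6. There Cyba was again highest with 342 to 417, Rac2 with 180 to 246 and Rac1 with 159 to 182 overlapped, Rap1a had 75.3 to 83.8, and Cybb was last with 0.208 to 1.74. In Wash the order of the group means was that of untreated cells, and the ranges of Rac2 and Rac1 overlapped, as did those of Rap1a and Ncf4.

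**Figure D3:**
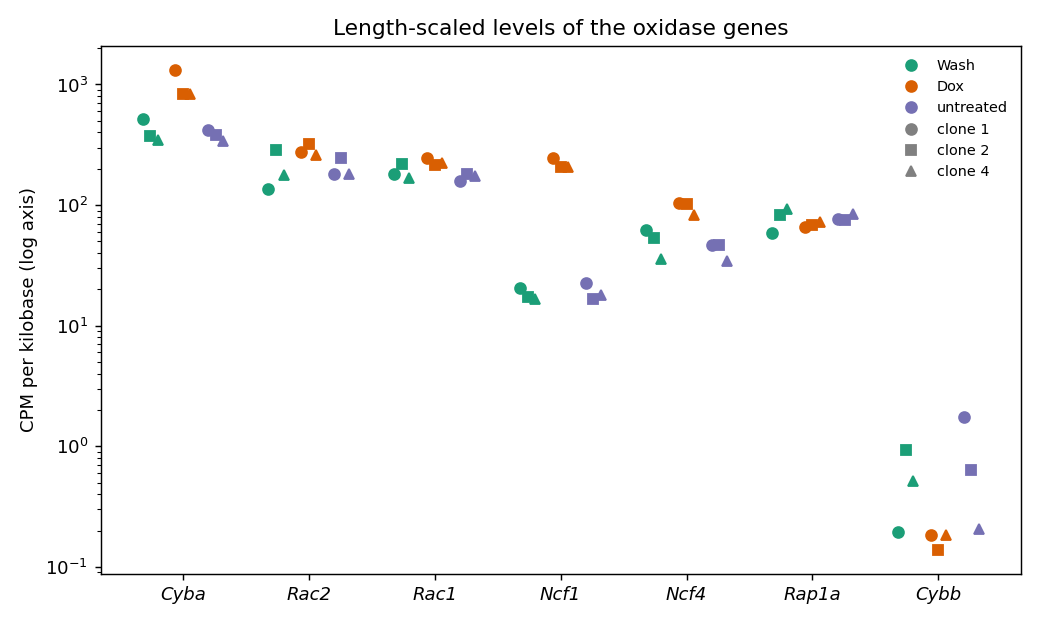
CPM per kilobase of gene length (vertical log axis) of the 7 genes in the Wash, Dox and untreated libraries, with 1 symbol for each clone. Cyba was the highest gene in every library and Cybb the lowest, with Cybb at 0.139 to 0.185 in Dox.

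Ratios within a library do not depend on scaling between libraries. Per kilobase, Cyba exceeded Cybb by 4510 to 7100 times in Dox, against 240 to 1650 times in untreated cells, without overlap. In Wash libraries the ratio was 406 to 2660. On the log2 scale of counts, Cybb over Cyba averaged -9.75 ± 0.33 in Dox and -6.58 ± 1.35 in untreated cells (SD, n = 3 each, exact two-sided permutation p = 0.1, the smallest that 3 against 3 can give). Ncf1 over Ncf4 averaged 2.09 ± 0.16 in Dox and -0.25 ± 0.28 in untreated cells (SD, n = 3 each, exact permutation p = 0.1), with Ncf1 counts at 3.74 to 4.66 times those of Ncf4 in Dox, against 0.677 to 0.978 times in untreated cells. Rac2 over Rac1 averaged 0.74 ± 0.23 in Dox and 0.64 ± 0.20 in untreated cells (SD, n = 3 each, exact permutation p = 0.6). Rac2 exceeded Rac1 in counts in every library except Wash clone 1, where the count ratio was 0.992.

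**Figure D4:**
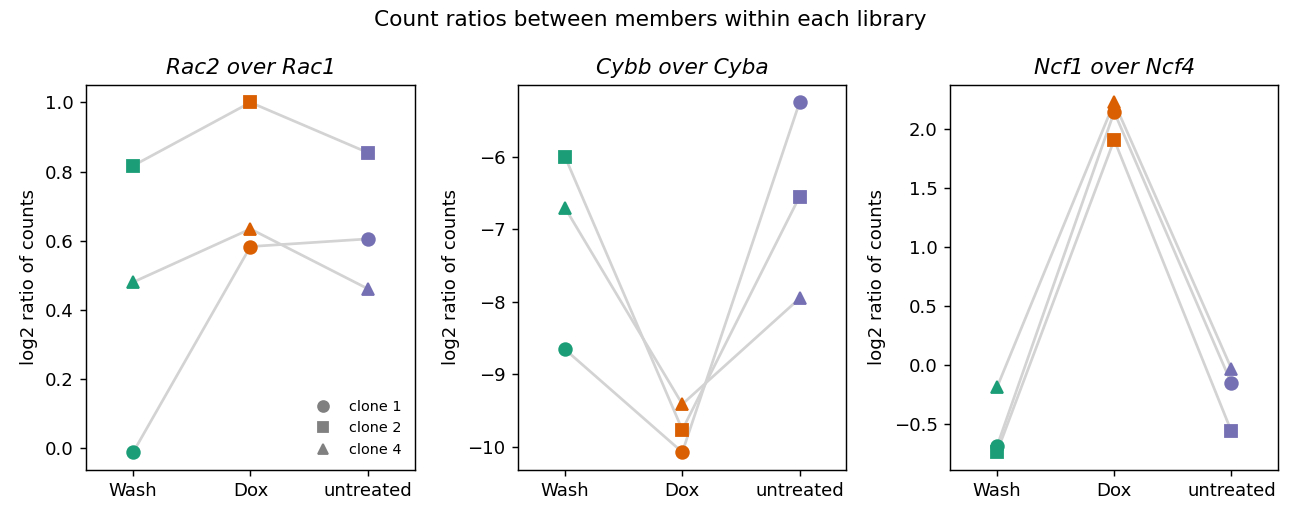
Log2 ratios of counts between pairs of the genes within each library (vertical axes), with grey lines joining the 3 states of a clone. Ncf1 over Ncf4 lay at 1.90 to 2.22 in Dox and -0.56 to -0.03 in untreated cells, and Cybb over Cyba lay lower in Dox in all 3 clones.

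Whether the clones answered Dox alike was tested with an interaction of clone and Dox at harvest, with untreated and Wash libraries of a clone both taken as without Dox. Each clone has 1 Dox library, so the Dox arm of a clone has no replicate and the spread comes from the differences between Wash and untreated libraries of a clone. Of the 7 genes 0 passed (adjusted p = 1 for each), which does not show that the clones respond alike. Over all 12004 genes edgeR called 0 (407 had an unadjusted p under 0.05), and DESeq2 called 5 genes and 0 members. The smallest unadjusted p among the 7 was 0.405, for Rac2.

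The genes whose log2 CPM followed each member most closely over the 9 libraries were searched among 9086 genes, as a description of libraries that share clones and states. The pattern of Ncf1 was closely matched by that of Gpx3, a secreted glutathione peroxidase, with a Pearson correlation of 0.994. Gpx3 averaged 79.6 CPM in Dox and 20.6 CPM in untreated cells. Cyba was most like Atp6v0c-ps2, an annotated pseudogene (0.998), and Cd37, a tetraspanin of leukocytes (0.991), which averaged 348 CPM in Dox and 130 CPM in untreated cells. Ncf4 was most like Rab1a and Pdcd6ip (0.983 and 0.982), Rac2 like Tmub2 and Rnasek (0.988 and 0.982), and Rac1 like Ndufa1 and Pex7 (0.960 and 0.958). Rap1a was closely matched by Slc35e2 (0.977), and Cybb like Tvp23b and Cep70 (0.948 and 0.941).

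Among 3 tested genes for proteins that serve the oxidase or its assembly, 1 rose in Dox and 0 fell (2 and 0 with the clone as a block). It was Hvcn1, the proton channel that balances the charge the oxidase moves, which averaged 157 ± 56.2 CPM in Dox and 65.4 ± 14.1 CPM in untreated cells (SD, n = 3 each, adjusted p = 0.0272). Atp6ap1, a subunit of the vacuolar proton pump, averaged 220 ± 26.5 CPM in Dox and 157 ± 12.1 CPM in untreated cells and did not pass. Cybc1, a chaperone needed for stable gp91phox protein, averaged 95.8 ± 14.4 CPM in Dox and 107 ± 3.88 CPM in untreated cells and did not pass (log2 fold change -0.15). Of the 9 genes of other NADPH oxidases and their partners, 1 was tested, Noxo1, an organiser of NOX1, with 2.4 ± 2.07 CPM in Dox and 2.09 ± 0.43 CPM in untreated cells. Nox3, Nox4, Duoxa1 and Duoxa2 had 0 reads in all 9 libraries, and Nox1, Duox1 and Duox2 had 0 in Dox and at most 3 reads over the 3 libraries of another group. Noxa1, an activator of NOX1, stayed under 1.36 CPM in every library.

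In Dox against untreated the 7 members had a median log2 fold change of 0.49, and all tested genes one of 0.00. Of 19 tested kinases and lipid enzymes upstream of the oxidase 8 rose and 0 fell (median 0.56). Over all genes tested, 6.57% were called higher and 4.35% lower. With the clone as a block the list had 10 higher and 1 lower, and all genes tested had 13% higher and 11.7% lower. These shares also stand beside the counts of the other lists in Dox against untreated, without and with the block. Pik3cg, the leukocyte phosphoinositide 3-kinase gamma, averaged 132 ± 20.6 CPM in Dox and 23.7 ± 3.78 CPM in untreated cells (SD, n = 3 each, adjusted p = 0.00631). Prkce, a protein kinase C, averaged 46.4 CPM in Dox and 12.9 CPM in untreated cells, and Pld1, a phospholipase D, 30.4 CPM in Dox and 10.1 CPM in untreated cells. Of 9 related small GTPases 3 rose and 1 fell (median 0.29): Rap1b rose, Rhog rose to 219 CPM in Dox, against 127 CPM in untreated cells, Rap2c rose to 82.2 CPM in Dox, against 46.6 CPM in untreated cells, and Rap2b fell to 4.86 CPM in Dox, against 11 CPM in untreated cells. Rac3, the Rac paralogue of the nervous system, was low with 2.24 CPM in Dox and 2.97 CPM in untreated cells. Cdc42 averaged 520 CPM in Dox and 395 CPM in untreated cells and Rhoa 376 CPM in Dox and 307 CPM in untreated cells, and neither passed. Of 17 tested exchange factors, which load GTPases with GTP, 2 rose and 1 fell (7 and 2 with the clone as a block), with Arhgef7 and Rapgef6 higher and Rapgef3 lower. Of 12 tested GTPase inhibitors 3 rose and 1 fell (4 and 1 with the block), with Chn2, a Rac GTPase-activating protein, at 27.4 CPM in Dox and 5.70 CPM in untreated cells.

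Of 13 tested genes of NADPH supply 0 rose and 3 fell (median 0.00; 1 and 3 with the clone as a block): Idh1, an NADP-dependent isocitrate dehydrogenase, Nadk2, the mitochondrial NAD kinase, and Pgls, an enzyme of the pentose phosphate pathway. Idh1 averaged 68.2 ± 13.5 CPM in Dox and 142 ± 26.9 CPM in untreated cells (SD, n = 3 each, adjusted p = 0.0211). Of 21 tested genes for the removal of peroxide and superoxide 1 rose and 1 fell (median -0.12; 5 and 2 with the clone as a block). Prdx1, a peroxiredoxin, averaged 121 ± 16.6 CPM in Dox and 329 ± 16.0 CPM in untreated cells (adjusted p = 0.00271), and Glrx, a glutaredoxin, rose (log2 fold change 0.66, adjusted p = 0.0477). In Wash against Dox, Idh1, Nadk2 and Prdx1 rose, with log2 fold changes of 1.02, 1.26 and 1.54.

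**Figure D5:**
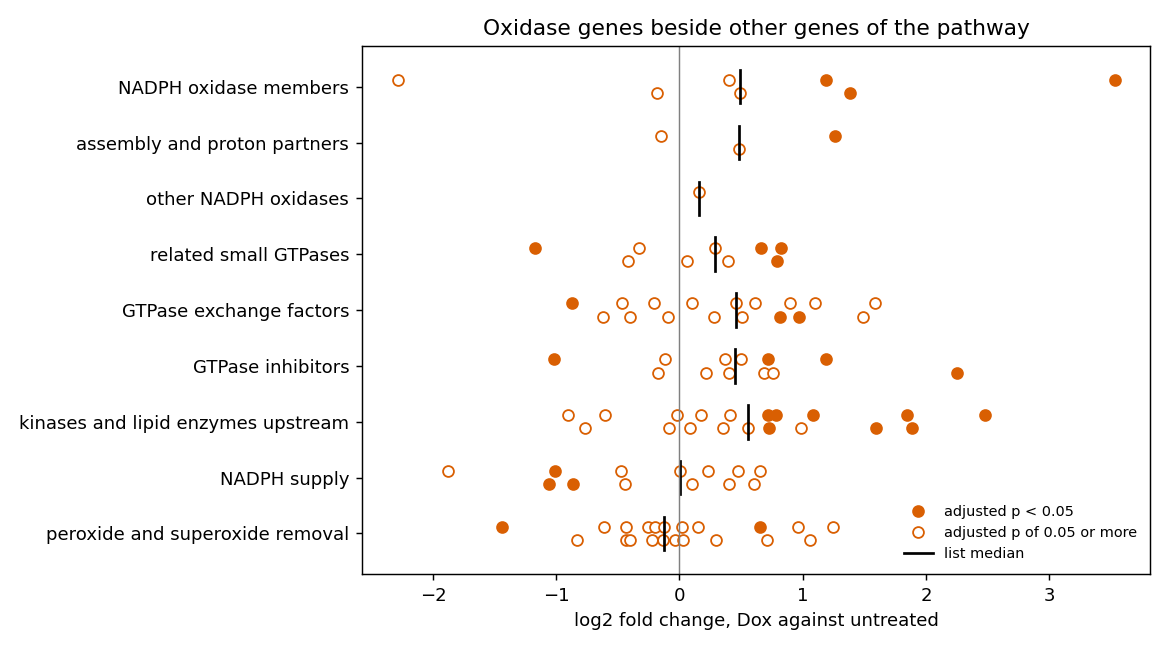
Log2 fold changes in Dox against untreated cells (horizontal axis) of the members and of the other lists of the oxidase pathway (rows), with filled points past an adjusted p of 0.05 and black ticks at the list medians. Ncf1 is the rightmost point at 3.53 and Cybb the leftmost at -2.29.

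Marker lists of cell types were summed in the same libraries; the single markers named here were picked after their values were seen. The summed level of 11 mature neutrophil markers was 49.3 to 79.9 CPM in Wash, 637 to 2490 CPM in Dox and 37.0 to 119 CPM in untreated libraries. Of the 9 tested, 7 rose in Dox, and Mmp8 and Mmp9 had at most 9 and 3 reads in any library. Camp averaged 6.24 ± 4.90 CPM in Dox and 5.87 ± 5.03 CPM in untreated cells (SD, n = 3 each). Ltf was also low, with 10.4 ± 1.63 CPM in Dox and 4.32 ± 2.93 CPM in untreated cells. The summed level of 9 eosinophil markers was 8350 to 10900 CPM in Wash, 3400 to 4930 CPM in Dox and 8390 to 12500 CPM in untreated libraries. Most of this sum was Epx, which averaged 3440 CPM in Dox and 8730 CPM in untreated cells. Of the 7 tested, 2 rose and 1 fell (2 and 2 in the blocked fit). Epx fell, while Siglecf rose to 27.5 CPM in Dox, against 0.718 CPM in untreated cells, and Il5ra to 7.26 CPM, against 0.738 CPM. Of 10 monocyte and macrophage markers 7 were tested, of which 1 rose, Fcgr1, and 1 fell, Cx3cr1 (2 and 1 with the block). The summed level of all 10 was 1810 to 2250 CPM in Wash, 1210 to 5380 CPM in Dox and 1790 to 2310 CPM in untreated libraries. Most of it was Ly6c2, which averaged 2930 ± 2020 CPM in Dox and 2010 ± 272 CPM in untreated cells (SD, n = 3 each). C1qa had 0 reads in all 9. Of 6 myeloid progenitor markers 2 rose and 0 fell (2 and 3 with the block), while the list's median log2 fold change was -1.27. Their summed level was 3360 CPM in Wash clone 1, mostly Mpo (1720 CPM) and Ctsg (951 CPM), against 300 to 798 CPM in the other libraries. The 9 mast cell and basophil markers summed to 695 to 1850 CPM in Wash, 207 to 1430 CPM in Dox and 1480 to 1800 CPM in untreated libraries, the 10 lymphocyte markers to 225 to 401 CPM in Wash, 91 to 215 CPM in Dox and 220 to 282 CPM in untreated libraries, and the erythroid markers to at most 8.43 CPM in any library. In bulk RNA, more cells of a type and more RNA per cell cannot be told apart, and the part of these shifts in the values of the oxidase genes was not tested.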

How the data were processed

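RNA-seq libraries of 3 clones in 3 states were analysed. The submitters' processing notes name mm10, featureCounts, CASAVA 1.8.2, limma 3.22.0 and edgeR 3.8.2; no aligner, annotation version or strand setting is given in the sources used here. Each deposited file holds raw counts of reads for Entrez genes and the authors' gene length, per the file headers. RefSeq on GRCm38.p6 (mm10) gave symbols and coordinates, and GENCODE M21 exon overlaps and shared 50-base stretches.

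Genes were filtered with filterByExpr, scaled by TMM and tested with edgeR 4.0.16 in R 4.3.3 (quasi-likelihood, a mean for each group, all 9 libraries, Benjamini-Hochberg adjustment over 12004 genes at 0.05). Standard errors were derived from the F statistic (the size of the log2 fold change over its root), and the prior count for log2 CPM was 2. For ratios of counts between members, 0.5 was added to each count. Alternatives used DESeq2 1.42.0 and limma 3.58.1 among others. The pipeline was tested on simulated counts for Dox against untreated. It called 45 of 100 genes changed 2-fold and 89 of 100 changed 4-fold, with 8 false calls in each case. A gene that did not pass can therefore still have changed.

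Libraries with one clone number come from one cell clone, so these numbers pair them, and a fit blocked by clone was among the alternatives. Deviations from group means correlated at 0.29 to 0.68 in all 9 same-clone pairs and at -0.692 to 0.323 in 18 pairs of different clones. The ranges overlapped: Wash clone 4 correlated at 0.323 with Dox clone 2 and at 0.29 with Dox clone 4. Deviations from a mean of 3 libraries sum to 0, which by itself lowers the values between clones. The closest pair of libraries, Wash and untreated clone 4, differed beyond sampling noise (chi-square of 3.56 per degree of freedom). Wash and untreated libraries gave 5.78 in clone 2 and 363 in clone 1, where Wash and Dox gave 99.3. The members and lists were chosen with earlier results of these data known. Named were all members, Spi1, up to 3 called genes of smallest p in each other list, the small lists by level, the 2 genes most like each member (mean log2 CPM of at least 3), and genes that overlap a member. The printed cell type markers were lists for blood cells, neutrophils, eosinophils, monocytes, progenitors, mast cells, lymphocytes and erythroid cells. Some genes that these rules name are not reported here.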

Additional observations from a re-analysis of the deposited data

How the results depend on the processing

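For the members, 331 values were recomputed under alternatives: 290 kept their direction and their side of the threshold, 21 lost the call, 3 gained it and 17 changed sign. Most of these values had no call to lose. Of 16 alternatives each in Dox against untreated, Ncf1 kept its call in 15, Cyba in 13 and Ncf4 in 12. In Wash against Dox they kept it in 15, 12 and 8 of 16. Without one clone the number of members called higher in Dox was 0 to 3 and called lower in Wash against Dox 0 to 2. With the clone as a block the member calls were the same as without it, 3 higher in Dox and 3 lower in Wash; with the block and without clone 4, 1 was higher in Dox and 1 lower in Wash. With the block and without clone 1, 4 were higher in Dox, Rac2 among them (adjusted p = 0.0417), and 1, Cybb, was higher in Wash against Dox (2.02, adjusted p = 0.0183). DESeq2 called 1 member, Cybb, lower in Dox. With the 2 groups alone 1 member was lower in Wash against Dox. Ncf4 in Wash against Dox also lost its call with scaling by library size alone (adjusted p = 0.0938). With a changed sign were Rap1a in Dox (0.037) and Ncf1 in Wash against untreated (0.17) with scaling by library size alone, which moved the median of all genes to 0.23 and 0.22, and Cybb in Wash against untreated without clone 1 (0.77, with the block 0.81; -1.44 without clone 2) and without its untreated library (0.36). The other changed signs were also in Wash against untreated: Rac2 (0.136) and Rap1a (0.162) with library size alone, and Ncf1 (0.065) without the untreated library of clone 1. Without the Wash library of clone 1 they were Cyba (-0.076), Rac2 (0.192) and Rap1a (0.158). With the block and without clone 1 they were Cyba (-0.003), Rac2 (0.097) and Rap1a (0.142). Without one clone Cyba ranged from -0.004 to 0.174, Rac2 from -0.216 to 0.118 and Rap1a from -0.10 to 0.142. The log2 ratio of Cybb over Cyba in Wash against untreated was -0.54 with all clones and -1.43 to 0.90 when 1 clone was left out. The causes were not tested.

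Counts over all genes moved more. For Dox against untreated, 789 higher and 522 lower became 1566 and 1410 with the block, 237 and 110 without the untreated library of clone 1, and 1266 and 992 without the Wash library of clone 1, an alternative chosen after seeing the data. The lower count was 257 with library size alone, 974 with DESeq2 and 858 with the 2 groups alone. Leaving out 1 clone gave 0 to 618 higher and 0 to 349 lower, and with the block 219 to 2148 higher and 141 to 1969 lower (384 and 239 without clone 2). For Wash against Dox, 437 higher and 723 lower became 1252 and 1492 with the block, 242 and 406 with library size alone, 94 and 230 with the 2 groups alone, and 240 and 477 without the untreated library of clone 1. The higher count was 894 with DESeq2 and 801 without the Wash library of clone 1. Leaving out 1 clone gave 1 to 399 higher and 3 to 670 lower, and with the block 120 to 2063 higher and 200 to 2262 lower (145 and 276 without clone 2). Library size alone gave 75.6% of calls as higher in Dox, against 60.2% with TMM. At 5 to 45 reads a library, Cybb is limited by counting as well as by the spread between clones, and it dropped out of the fits with a filter of 5 CPM.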
